A study of Sus scrofa with 67 samples.

Results

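The comparison of the porcine oviduct on day 18 of the oestrous cycle with day 15 rests on 7 RNA-seq libraries, 3 of day 18 and 4 of day 15, chosen by the tissue and day of their labels from 22 oviduct libraries and 66 libraries in all. The series followed the endometrium, ovary and oviduct of gilts over 7 days of the cycle, where day 0 is the onset of oestrous behaviour. All gilts were cycling Landrace × Yorkshire crossbreds aged 6 to 8 months, the labels name no treatment, and the oviduct samples were of the ampulla. The study's methods give 3 gilts per day while day 15 has 4 libraries, so it is not known whether these came from 4 gilts. They were treated as separate samples. The p-values of the main test rest on the spread between libraries of the same day, estimated over all 22 oviduct libraries and not these 7 alone.

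The oviduct is lined by secretory cells, which release glycoproteins such as oviductin into the fluid around gametes and early embryos, and by ciliated cells, whose beating moves them. In the luteal phase the corpora lutea secrete progesterone, and once they regress in a cycle without pregnancy the growing follicles raise oestradiol. The comparison addresses how the oviduct's transcripts differ between these late days of the cycle. No hormone level was used here to stage the gilts.

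The 7 libraries held between 10086797 and 11511218 counts, so that 3 counts, taken as the floor of detection, correspond to 0.261 to 0.297 CPM (counts scaled to a common library size, a relative level that is not per length). Intervals were not drawn from counts, since reads without molecular identifiers are not independent molecules. No library pair of the same day was identical in 9 pairs compared. Defining markers of the oviduct epithelium were present: OVGP1, the gene of oviductin, stood between 4700 and 65500 CPM, and FOXJ1, the master regulator of motile cilia, between 1110 and 1730 CPM. MSX1, the gene that separated the endometrium from the other tissues on days 3 to 9 by at least 20-fold, was between 0.995 and 3.65 CPM in the 7 libraries against 140 to 578 CPM in the endometrium of days 15 and 18. Of 8 oocyte genes, FIGLA and NOBOX had 0 counts in all 7, while GDF9, an oocyte growth factor, had 264 to 551 counts in each. The zona pellucida genes ZP2 and ZP4 were low and higher on day 18 without overlap, with 15, 16, 6 and 15 counts against 35, 40 and 63 for ZP2 and 2, 2, 0 and 3 against 7, 9 and 26 for ZP4 (edgeR adjusted p = 0.297 and 0.194). Of all genes, 2.5% were higher without overlap. Of 3 oocyte genes tested, ZP2 and ZP4 were higher and GDF9 lower at an unadjusted edgeR p under 0.05 (8.76% and 7.31% of all genes). GDF9 had 374, 551, 410 and 288 counts against 338, 268 and 264, and its days overlapped. Without library 2 of day 18, 1 of the 3 was higher and 0 lower (3.61% and 3.62% of all genes).

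Library 2 of day 18 stood apart from the other 21 oviduct libraries over the whole transcriptome. Its median absolute difference from the median oviduct library was 0.564 on the log2 scale, against 0.161 to 0.283 in the others. It held the highest value of the 22 libraries in 19.3% of the genes tested and the lowest in 23.8%, where no other library exceeded 5.87% and 6.04%. The 24 genes of ribosomal proteins, which have short messages, were at a median of 1.21 above the median library, against -0.35 to 0.33 elsewhere. The 23 measured genes of a list of very large proteins, which have long messages, were at -1.18, against -0.26 to 0.28 elsewhere. Both lists were drawn up after this library had been seen to differ. The part of these differences in the results was not tested, and calls are given below with and without this library.

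**Figure D1:**
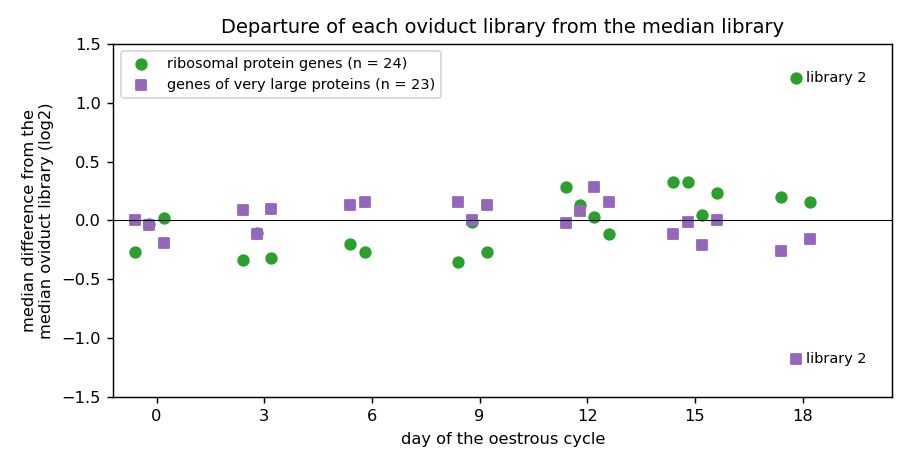
Median difference of each oviduct library from the median oviduct library (y axis, log2 CPM) by day of the cycle (x axis), for 24 ribosomal protein genes (circles) and 23 genes of very large proteins (squares). Library 2 of day 18 lies at 1.21 and -1.18, outside the range of the other 21 libraries.

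Over all genes, 2 of 15665 passed an adjusted p of 0.05 in edgeR's quasi-likelihood test (0.0128% of those tested), 1 in each direction (0.00638%). KIF3B, a motor subunit of kinesin-2 that carries cargo along cilia, fell on day 18. A gene without a paired symbol, ENSSSCG00000024493, rose. At an unadjusted p under 0.05 there were 2518 genes (16.1%), 1373 of them higher on day 18 (8.76%) and 1145 lower (7.31%). Without library 2 of day 18 these were 1130 genes (7.23%; 3.61% higher, 3.62% lower), and KIF3B was the only gene called by edgeR (0.0064%).

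KIF3B stood at 428, 456, 314 and 403 CPM in libraries 1 to 4 of day 15 and at 132, 81.8 and 148 CPM in libraries 1 to 3 of day 18. The days did not overlap, and day 15 was the day that stood out of the cycle, since the means were 147 CPM on day 0 and between 139 and 168 CPM on days 3, 6, 9 and 12. KIF3B fell by 1.73 on the log2 scale from day 15 to day 18 (standard error, SE, 0.19; edgeR adjusted p = 0.000315), and by 1.51 without library 2 (adjusted p = 0.000956). With only the libraries of days 15 and 18 in the fit the fold was the same, at -1.73, and was not called (adjusted p = 0.398). Comparisons with the neighbouring days share these libraries. Day 15 was higher than day 12 by 1.35 (edgeR adjusted p = 0.0023; 0.0128% of genes called), and day 18 differed from day 0 by -0.28 (adjusted p = 0.425; 0.23% called).

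KIF3B was also lower on day 18 than on day 15 in the other tissues. The study's methods give 3 gilts per day for the 3 tissues, so the tissues of a day share gilts and are not independent of each other, while the fit below treats their libraries as independent. In 1 edgeR fit of all 66 libraries, which called 0.201% of genes in the oviduct (0.183% higher and 0.0177% lower on day 18), the change of KIF3B from day 15 to day 18 was -1.34 ± 0.19 (SE) in the endometrium (adjusted p = 9.45e-05) and -1.23 ± 0.19 in the ovary (adjusted p = 0.000396). Of 16934 genes, that fit called 40 higher and 124 lower on day 18 in the endometrium, and 34 higher and 178 lower in the ovary. On the CPM scale of that fit, day 15 ranged from 267 to 359 in the endometrium, 107 to 184 in the ovary and 296 to 448 in the oviduct. Day 18 was lower in each tissue without overlap, at 117 to 139, 52.4 to 67.6 and 76.1 to 138 CPM in the same order. On day 12 the endometrium was at 162 to 207 CPM, above its day 0 range of 89.1 to 129 CPM, while day 12 overlapped day 0 in the oviduct (115 to 186 and 133 to 150 CPM). The oviduct's change differed from that of the endometrium by -0.40 ± 0.26 (adjusted p = 0.679) and from that of the ovary by -0.52 ± 0.26 (adjusted p = 0.322), and neither difference was called. Stage of the cycle and any other way in which the day 15 samples differed from the rest cannot be told apart here.

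ENSSSCG00000024493 was at 46.0, 39.6, 48.1 and 47.8 CPM on day 15 and at 66.2, 394 and 227 CPM on day 18. All 3 libraries of day 18 were above day 15, with library 1 close to it and library 2 at the level of day 0, whose mean was 369 CPM. The rise was 2.33 ± 0.37 (SE) on the log2 scale (edgeR adjusted p = 0.0383). Without library 2 it was 1.69 and was no longer called (adjusted p = 0.652). The call was also lost without library 1, 2 or 3 of day 15 (adjusted p = 0.148, 0.107 and 0.121) or library 3 of day 18 (0.164), with the replicate block (0.0757) and with only days 15 and 18 in the edgeR fit (0.798), where the fold was 2.26 to 2.37. Its level was 35.4 CPM on day 12, the lowest mean of the cycle. In the ovary it was 28.6 to 40.7 CPM on day 15 and 29.8 to 34.9 CPM on day 18, and the oviduct's change exceeded the ovary's by 2.42 ± 0.41 (edgeR adjusted p = 0.00516, 0.00591% of genes called; 1.81 without library 2, adjusted p = 0.149). Against the endometrium the change exceeded by 1.94 ± 0.41 (adjusted p = 0.0513; 0.0236% of genes called, 9.49% at an unadjusted p under 0.05).

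**Figure D2:**
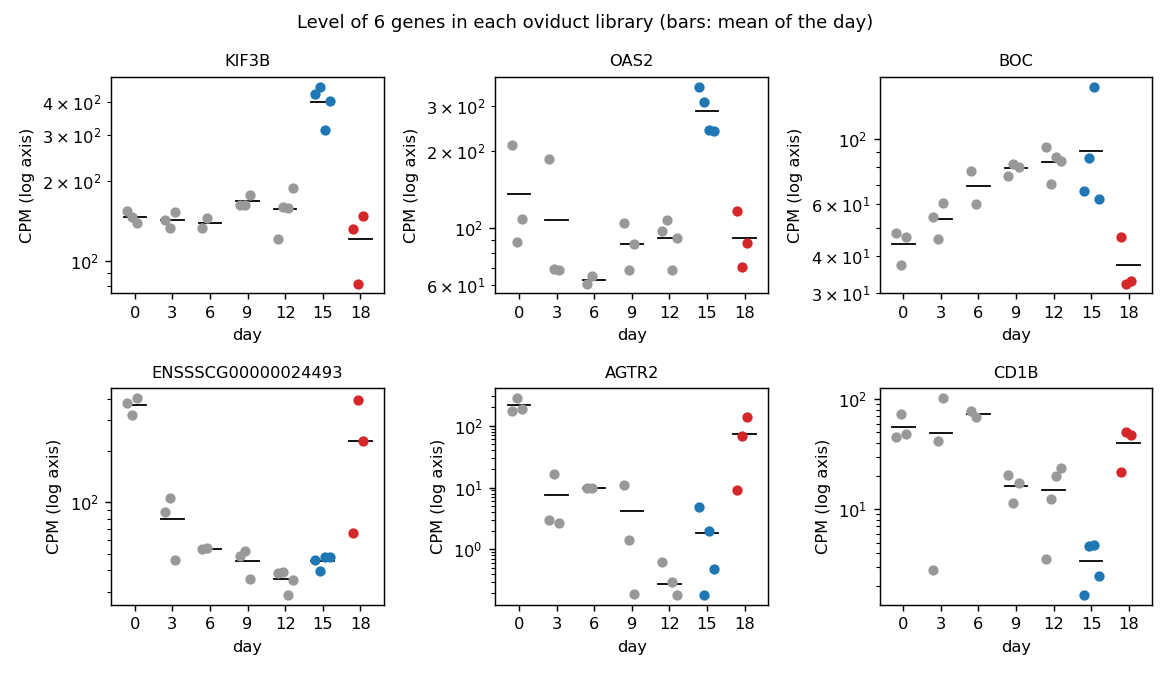
CPM (log axis) of 6 genes in each of the 22 oviduct libraries by day, with bars at the mean of each day, day 15 in blue and day 18 in red (a library at 0 CPM, as 1 of AGTR2 on day 12, cannot be drawn). KIF3B and OAS2 are highest on day 15, BOC is lowest on day 18, and ENSSSCG00000024493, AGTR2 and CD1B are higher in every day 18 library than in any of day 15.

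To place both days in the cycle, the first principal component of the oviduct libraries of days 0 to 12 was taken over 500 genes (48.7% of their variance) and scaled so that the mean of day 0 is 0 and that of day 12 is 1. The libraries of day 15 lay at 0.687, 1.098, 0.548 and 0.589 and those of day 18 at 0.650, 0.237 and 0.192. Library 2 of day 15 was thus at the level of day 12 (0.836 to 1.127), and library 1 of day 18 lay among those of day 15. Libraries 2 and 3 of day 18 lay in the range of day 3 (0.187 to 0.621), as did libraries 3 and 4 of day 15. The means were 0.730 ± 0.252 (SD, n = 4) and 0.360 ± 0.253 (SD, n = 3), a difference of -0.37 (exact permutation test, two-sided p = 0.143; the smallest p of 35 splits is 0.0286). The groups overlapped, and the difference did not pass the test.

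**Figure D3:**
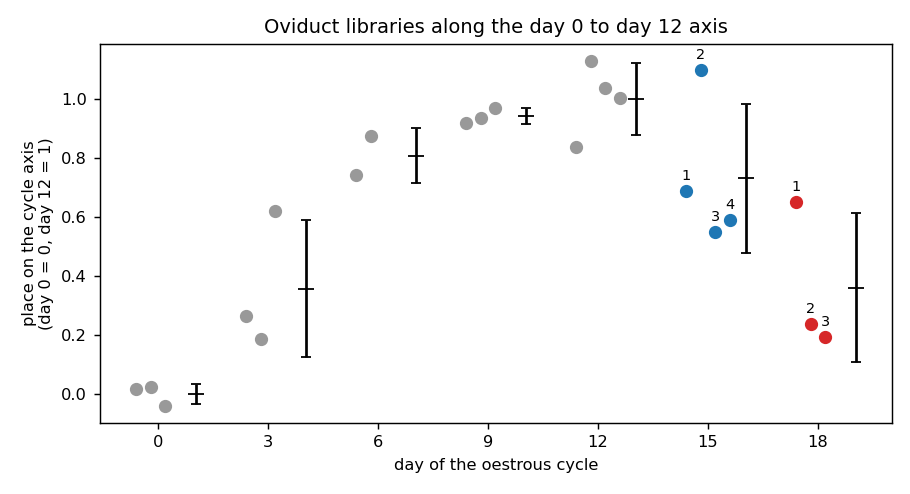
Place of each oviduct library (y axis, day 0 mean = 0, day 12 mean = 1) by day, with the mean and SD of each day beside the points and library numbers for days 15 (blue) and 18 (red). Day 18 libraries 2 and 3 lie at 0.237 and 0.192, while library 1, at 0.650, lies within the range of day 15.

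Genes that separate the follicular from the luteal oviduct were taken from a fit of days 0 and 12 alone, which uses no library of days 15 or 18. The luteal-high list held 559 genes at least 2-fold higher on day 12 and the luteal-low list 1070 genes at least 2-fold lower. From day 15 to day 18 the luteal-high genes had a median log2 fold change of -0.58, with 515 of 559 below 0, and the luteal-low genes a median of 0.58, with 894 of 1070 above 0. The median of all genes tested was -0.03. Without library 2 of day 18 the medians were -0.49 and 0.45, with 861 of the luteal-low genes above 0. The luteal-high median was -0.37 without library 2 of day 15 and -0.92 without library 1 of day 18. With no limit on the fold change of the lists, the luteal-high median was -0.31 and the luteal-low median 0.4.

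At an unadjusted edgeR p under 0.05, 177 luteal-high genes were lower on day 18 and 0 higher, beside 7.31% and 8.76% of all genes, and 313 luteal-low genes were higher and 4 lower. Without library 2, 99 luteal-high genes were lower and 1 higher, and 207 luteal-low genes were higher and 5 lower, beside 3.62% of all genes lower and 3.61% higher. All libraries of both days were separated in 51 luteal-high genes, all lower on day 18, beside 3.48% of all genes, and in 79 luteal-low genes higher on day 18, beside 2.5% of all genes, and 4 luteal-low genes lower. Only ENSSSCG00000024493, a luteal-low gene, passed the adjusted threshold in these lists. Neither list was tested as a set.

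**Figure D4:**
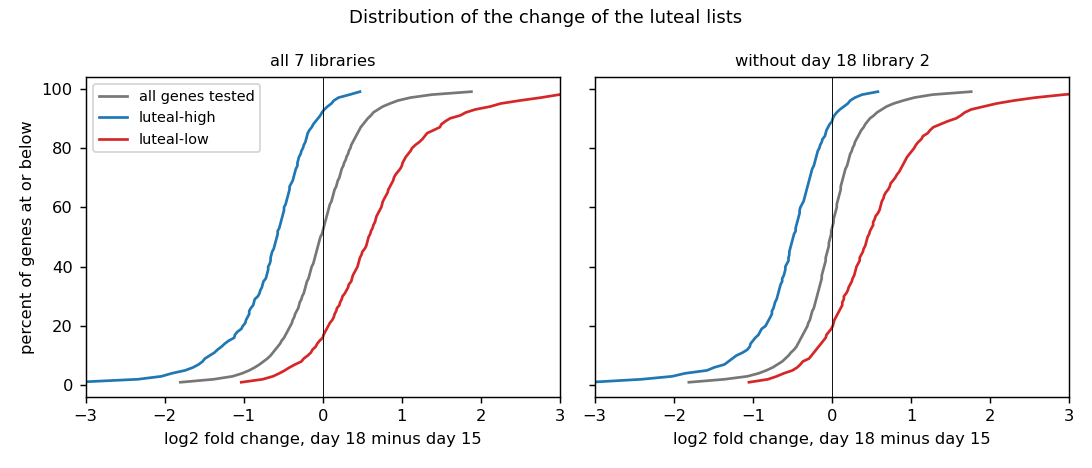
Percent of genes (y axis) at or below each log2 fold change of day 18 against day 15 (x axis) for all genes tested (grey), luteal-high genes (blue) and luteal-low genes (red), with all 7 libraries and without library 2 of day 18. The medians are -0.03, -0.58 and 0.58 with all libraries.

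DESeq2, which was run as an alternative, called 224 genes (1.43%), 129 higher (0.823%) and 95 lower (0.606%) on day 18. Of the 129, 70 were luteal-low and 0 luteal-high, and of the 95, 24 were luteal-high and 1 luteal-low. Without library 2 of day 18 DESeq2 called 15 genes (0.0959%; 0.0384% higher, 0.0576% lower), 14 of which it also called with that library. They included KIF3B and ENSSSCG00000024493 and, higher on day 18, CD1B, REC8 and PHF7. BOC, MSMB and MTG1 were lower, and 6 more of the 15 have no paired symbol. Without library 1 of day 18, edgeR called 795 genes (5.09%), 507 higher (3.24%) and 288 lower (1.84%).

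A further 20 genes with symbols, which did not pass the edgeR threshold, were picked after their values were seen, as the 10 in each direction with the lowest p among genes whose days did not overlap and with 10 or more counts per library on the higher day. Their adjusted p in edgeR ranged from 0.156 to 0.190, and edgeR called none of them without library 2. A selection by p and separation has to show differences, so the values are a description.

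AGTR2, the type 2 angiotensin receptor, had the widest difference among those higher on day 18. It stood at 4.76, 0.184, 1.96 and 0.477 CPM on day 15, under the 3-count floor in library 2, and at 9.21, 68.5 and 139 CPM on day 18. Its mean was 214 CPM on day 0 and 0.279 CPM on day 12, so that day 18 lay between the extremes of the cycle. The difference was 5.26 ± 1.03 (SE) on the log2 scale (adjusted p = 0.156), and 5.30 without library 2.

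CD1B, which presents lipid antigens to T cells, was at 1.67, 4.61, 4.73 and 2.48 CPM on day 15 and at 21.8, 50.2 and 47.8 CPM on day 18. Its day 15 mean of 3.37 CPM was the lowest of the cycle, beside 14.9 CPM on day 12 and 55.5 CPM on day 0. The difference was 3.56 ± 0.75 (adjusted p = 0.156), and DESeq2 called it with and without library 2 (adjusted p = 0.000529 and 0.0344). The summed level of 11 leukocyte markers was 42.7 to 92.0 CPM on day 15 and 38.2 to 55.6 CPM on day 18, and the days overlapped. In bulk tissue, a different number of cells of a type and a different RNA content per cell cannot be told apart.

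REC8, a cohesin subunit of meiosis, was at 15.3, 14.9, 15.4 and 11.5 CPM on day 15 and at 22.6, 26.1 and 25.5 CPM on day 18. SCIN, an actin-severing protein, was at 37.6, 61.9, 28.7 and 42.1 CPM against 84.9, 91.7 and 84.9 CPM. Day 15 was its lowest day, with a mean of 42.6 CPM. The means of days 0 to 12 were between 78.5 and 122 CPM, and that of day 18 was 87.2 CPM. SCIN was lower on day 15 than on day 12 by 1.37 on the log2 scale (edgeR adjusted p = 0.0185; 0.0128% of genes called). In REC8 and SCIN the 3 libraries of day 18 lay close together. The same group of 10 held SMS, the spermine synthase, RBM7, TRIM36, PHF7 and PLAA, with differences between 0.57 and 2.06.

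Among those lower on day 18, OAS2, an interferon-induced sensor of double-stranded RNA, was at 356, 311, 241 and 239 CPM on day 15 and at 116, 70.4 and 87.6 CPM on day 18. Like KIF3B, it was highest on day 15 of all 7 days, with a mean of 287 CPM beside 91.0 CPM on day 12. The difference was -1.65 ± 0.35 (SE; adjusted p = 0.156), and it was -1.49 without library 2. BOC, a co-receptor of hedgehog ligands, was at 66.5, 86.1, 150 and 62.4 CPM against 46.6, 32.3 and 33.0 CPM, a difference of -1.29 ± 0.24. The other 8 were TLR5, the flagellin receptor, ABCC5, PINK1, FBXO24, GRHL3, LYST, SARS2 and ARMC12, with differences between -3.20 and -0.63.

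Genes of cholesterol synthesis lay mostly above 0. Of 19 measured, edgeR called 0, 18 had a fold change above 0 and 14 were higher at an unadjusted edgeR p under 0.05 (8.76% of all genes). The median log2 fold change was 0.78, beside -0.03 for all genes, and was 0.78 without library 2, where 12 of the 19 were higher at an unadjusted p under 0.05 (3.61% of all genes). DESeq2 called 4 with all libraries (0.823% of all genes higher) and 0 without library 2 (0.0384%).

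HMGCS1, which makes the precursor of mevalonate, was at 158, 82.6, 191 and 408 CPM on day 15 and at 301, 532 and 785 CPM on day 18. The days overlapped through library 4 of day 15 (1.36 ± 0.40, edgeR adjusted p = 0.194). MSMO1, a sterol demethylase, was at 85.8, 70.1, 114 and 124 CPM against 139, 220 and 200 CPM (0.92 ± 0.22, adjusted p = 0.183). It was among the 4 members whose days did not overlap, with SC5D, MVK and IDI1, beside 2.5% of all genes higher on day 18 without overlap. SREBF2, the transcription factor of the pathway, differed by 0.29.

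**Figure D5:**
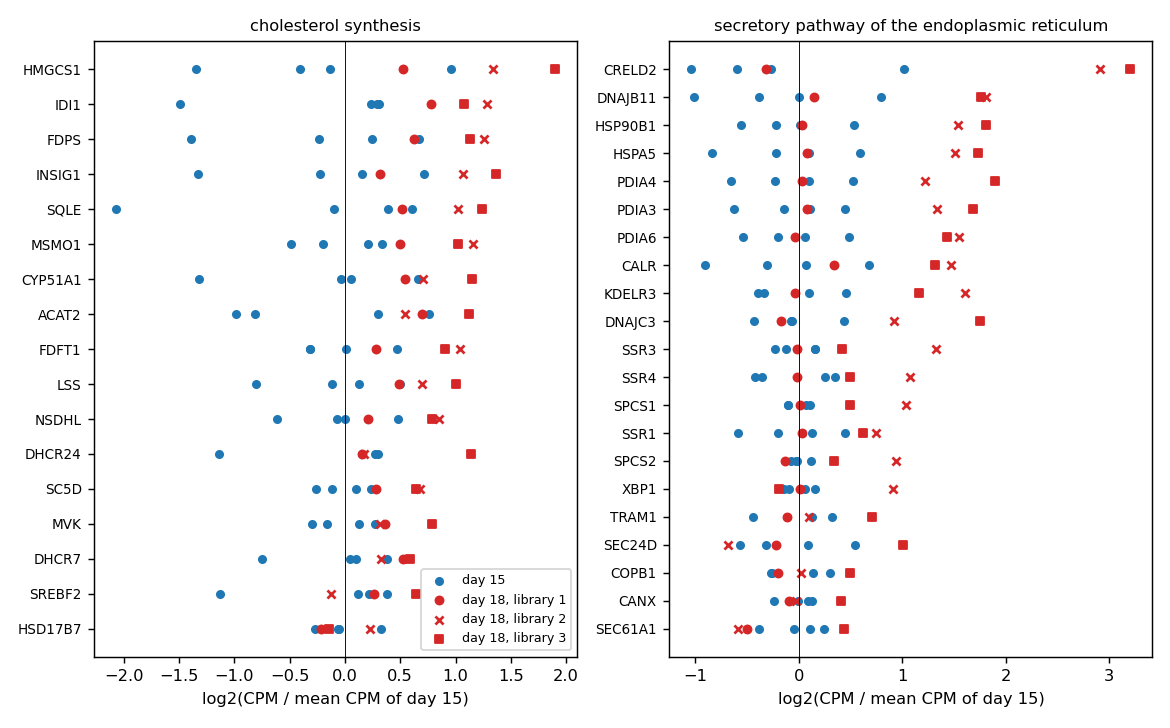
CPM of 17 of the 19 measured genes of cholesterol synthesis and of the secretory pathway of the endoplasmic reticulum (21 genes) relative to its day 15 mean (x axis, log2), with day 15 libraries in blue and day 18 libraries in red by symbol. Most genes have day 18 libraries 2 and 3 to the right of day 15, and the median log2 fold changes of all 19 and 21 are 0.78 and 0.69.

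The secretory pathway of the endoplasmic reticulum had a like count of members above 0. Of 21 genes measured, edgeR called 0 and DESeq2 5 (0.823% of all genes higher), 20 had a fold change above 0 and 15 were higher at an unadjusted edgeR p under 0.05 (8.76% of all genes), with a median of 0.69. Without library 2 these were 20 and 10 (3.61% of all genes), with a median of 0.52, and DESeq2 called 0. No member separated the days, beside 2.5% of all genes higher on day 18 without overlap and 3.48% lower.

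CRELD2, a chaperone induced by stress of the reticulum, was at 40.2, 23.6, 32.0 and 97.8 CPM on day 15 and at 38.8, 364 and 447 CPM on day 18 (2.55 ± 0.61, edgeR adjusted p = 0.183). HSPA5, the chaperone BiP, was at 830, 433, 665 and 1170 CPM against 818, 2210 and 2570 CPM (1.27 ± 0.37, adjusted p = 0.194). CALR, the lectin chaperone calreticulin, was at 1280, 648, 982 and 1950 CPM against 1540, 3370 and 3030 CPM (1.12 ± 0.33, adjusted p = 0.194). In each of the 3, libraries 2 and 3 of day 18 were above all of day 15 and above the day 0 mean, which was 241, 1810 and 2680 CPM in the order given, while library 1 stayed within the range of day 15. XBP1, a transcription factor of this response, differed by 0.33, and by -0.09 without library 2.

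In the lists of secretory and ciliated epithelium, cell cycle, steroid receptors, matrix, and TGF beta, BMP and WNT signalling, neither edgeR nor DESeq2 called a member. In the secretory list of 12 measured genes, 1 was lower (8.33%) and 0 higher at an unadjusted p under 0.05, beside 7.31% and 8.76% of all genes. OVGP1 was at 4700, 29000, 5360 and 8350 CPM on day 15 and at 9970, 48000 and 65500 CPM on day 18. The days overlapped through library 2 of day 15, and the mean of day 0 was 140000 CPM. The difference was 1.80 ± 0.95 (SE; edgeR adjusted p = 0.35). PAX2, a transcription factor of the oviduct epithelium, was at 41.0, 58.8, 67.8 and 40.4 CPM against 16.2, 12.8 and 32.4 CPM, without overlap (-1.35 ± 0.43, adjusted p = 0.194).

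In the ciliated list of 22 measured genes, 1 was higher (4.55%) and 2 were lower (9.09%) at an unadjusted p under 0.05, beside 8.76% and 7.31% of all genes, with a median of -0.07. FOXJ1 was at 1240, 1730, 1110 and 1370 CPM on day 15 and at 1430, 1290 and 1520 CPM on day 18 (0.05 ± 0.19, edgeR adjusted p = 0.918). CCNO, which drives the amplification of centrioles in cells that form many cilia, was at 3.08, 4.89, 1.87 and 75.8 CPM against 5.81, 193 and 212 CPM (2.68 ± 1.07, adjusted p = 0.25). It was high in 1 library of day 15 and 2 of day 18, and low in the rest. DNAH9, an axonemal dynein, differed by -0.63 and the dynein regulator DRC1 by -0.58, and neither had an unadjusted p under 0.05 without library 2.

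The 20 measured genes of the cell cycle list varied as widely within day 15. Their summed level was 199, 105, 98.3 and 1030 CPM on day 15 and 302, 454 and 731 CPM on day 18, so that library 4 of day 15 was the highest of all 7. CDK1, the kinase of mitotic entry, was at 1.85, 0.738, 1.70 and 40.7 CPM against 4.47, 47.3 and 43.1 CPM (1.49 ± 1.01, edgeR adjusted p = 0.465). None of the 20 had an unadjusted p under 0.05, beside 8.76% of all genes higher and 7.31% lower. Of the 20, 17 had a fold change above 0 (median 0.57). Without library 2 of day 18, 19 were above 0 (median 0.57).

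Among 16 steroid receptors and cofactors measured, 3 were higher on day 18 at an unadjusted p under 0.05 with all libraries (18.8%, beside 8.76% of all genes), FKBP4, PGR and GPER1, and 0 without library 2 (3.61% of all genes). PGR, the progesterone receptor, was at 64.4, 16.3, 46.2 and 101 CPM on day 15 and at 57.5, 181 and 131 CPM on day 18 (1.11 ± 0.51, edgeR adjusted p = 0.292). PGR differed by 0.72 without library 2 of day 18. ESR1, the oestrogen receptor alpha, was at 572, 437, 537 and 505 CPM against 566, 676 and 999 CPM (0.54 ± 0.30, adjusted p = 0.372). Both overlapped through library 1 of day 18, and both were lowest in library 2 of day 15.

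In the IGF, prostaglandin and interferon lists edgeR called 0 genes and DESeq2 1 each, IGF1, PTGES3 and OAS2 (0.823% of all genes called higher and 0.606% lower). Without library 2 of day 18 DESeq2 called none of the 3 (adjusted p = 0.352, 0.525 and 0.0742), and their edgeR fold changes were then 2.22, 0.59 and -1.49. The counts at an unadjusted p under 0.05 were then 1 higher and 0 lower in the IGF list, 1 and 3 in the prostaglandin list and 1 and 1 in the interferon list (3.61% and 3.62% of all genes). IGF1, the growth factor, was at 5.46, 1.57, 2.68 and 7.25 CPM on day 15 and at 2.86, 26.5 and 36.7 CPM on day 18 (2.37 ± 0.68, edgeR adjusted p = 0.194). Of 8 genes of the IGF axis, 1 was higher and 1 lower at an unadjusted p under 0.05 (12.5% each, beside 8.76% and 7.31% of all genes). SMAD7, an inhibitor of TGF beta signalling, was at 12.4, 17.1, 17.3 and 15.1 CPM against 10.5, 12.0 and 8.98 CPM (-0.56 ± 0.19, adjusted p = 0.204). Of 19 genes of the TGF beta, BMP and WNT list, 2 were higher and 2 lower at an unadjusted p under 0.05 (10.5% each, beside 8.76% and 7.31% of all genes), with a median of -0.33. With library 2 of day 18 left out, 0 were higher and 2 lower (3.61% and 3.62% of all genes), with a median of -0.44. SFRP1, a secreted WNT inhibitor, was the widest of the 4, at 64.9, 14.5, 26.9 and 59.5 CPM against 56.1, 229 and 92.7 CPM (1.60 ± 0.50, edgeR adjusted p = 0.194; 0.84 without library 2).

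In the prostaglandin list of 14 measured genes, 1 was higher (7.14%) and 2 lower (14.3%) at an unadjusted p under 0.05, beside 8.76% and 7.31% of all genes. ALOX15, a lipoxygenase, was at 13.8, 10.7, 16 and 14.0 CPM on day 15 and at 2.06, 6.00 and 1.95 CPM on day 18, without overlap (-2.04 ± 0.94, edgeR adjusted p = 0.295). HPGD, which inactivates prostaglandins, did not overlap either but lay near the floor, between 0.0976 and 1.11 CPM. PTGES3, a cytosolic prostaglandin E synthase and cochaperone, was at 349, 315, 273 and 402 CPM against 359, 788 and 649 CPM (0.84 ± 0.24, adjusted p = 0.194).

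Interferon genes other than OAS2 lay closer to 0. In that list 2 of 10 measured genes were lower and 0 higher at an unadjusted p under 0.05 (7.31% and 8.76% of all genes), and the other, the transcription factor IRF1, was at 87.4, 126, 61.6 and 114 CPM against 82.7, 66.3 and 63.8 CPM (-0.45 ± 0.19, edgeR adjusted p = 0.262). IFIT1 was at 28.5, 25.5, 18.4 and 16.6 CPM against 14.7, 17.0 and 19.0 CPM. The matrix list had 1 of 30 genes higher (3.33%, beside 8.76% of all genes) and 0 lower at an unadjusted p under 0.05, the proteoglycan LUM, which was at 148, 142, 184 and 197 CPM against 199, 475 and 328 CPM (1.0 ± 0.31, edgeR adjusted p = 0.194). LUM differed by 0.65 without library 2 of day 18, where 0 of the 30 were higher at an unadjusted p under 0.05 (median -0.07).

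Markers of other cells varied within both days. The summed level of 11 smooth muscle genes was 17700, 2060, 41400 and 10700 CPM on day 15 and 13100, 37400 and 16200 CPM on day 18, lowest in library 2 of day 15, the library at the day 12 level of the cycle axis. The sum of 8 genes of ovarian steroidogenic cells was 38.0, 90.3, 116 and 21.0 CPM on day 15 and 23.6, 7.31 and 9.56 CPM on day 18. It was mostly CYP11A1, the cholesterol side-chain cleavage enzyme, at 24.0, 73.8, 110 and 20.3 CPM against 20.9, 5.02 and 8.98 CPM (-2.28 ± 0.66, edgeR adjusted p = 0.194; DESeq2 adjusted p = 0.0232 and, without library 2 of day 18, 0.317). INHA, an inhibin subunit made by granulosa cells, was at 12.2, 7.29, 3.04 and 0.286 CPM on day 15 and at 0.715, 0.764 and 0.0976 CPM on day 18 (-3.42 ± 1.5, edgeR adjusted p = 0.281). The 5 members tested all had a fold change below 0 (median -2.16), 2 of them with an unadjusted p under 0.05 beside 7.31% of all genes. Leaving out library 2 of day 18, 2 of the 5 were above 0 (median -1.93) and 1 was lower at an unadjusted p under 0.05 (3.62% of all genes). FSHR, the FSH receptor of granulosa cells, was at 0.277 CPM or less in all 7 libraries. The part of these marker levels in the differences between days was not tested.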

How the data were processed

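RNA of the ampulla was sequenced as poly-A libraries. The authors cut bases from the start of the reads, mapped them with tophat2 to Sus scrofa 10.2 with Ensembl annotation, and deposited whole-number counts per gene and library, without normalization or pooling; the submitters' processing notes also name featureCounts, and whether strand was used in counting is not given in the sources used here. Table columns were matched to tissue and day, with 0 columns left unmatched. Symbols were paired with 11804 of 25322 identifiers, and 10115 of the 15665 genes tested had one. No sequence or coordinate is printed, as no genome of that build was used here.

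The main test was edgeR 4.0.16 in R 4.3.3 on the deposited counts (TMM, filterByExpr, glmQLFit with robust estimation, glmQLFTest) over all 22 oviduct libraries with day as a factor, with Benjamini-Hochberg adjustment over all genes tested and a threshold of 0.05. It took the place of the authors' Cuffdiff test on FPKM, which were not used here. CPM are counts over the TMM-scaled library size. The SE is the absolute log2 fold change over the root of the test statistic. The steps were tested on simulated data. Differences between tissues came from 1 fit of all 66 libraries. Named genes were those with an adjusted p under 0.05, no overlap between days and 10 or more counts per library on the higher day, ranked by fold, up to 12 in each direction, which gave 2 genes. A few members counted in the lists are not reported here by name. The members and the 26 gene lists were chosen with earlier results of these data known. In the lists not described in the text, edgeR called no gene. With all libraries DESeq2 called 1 of 10 complement genes, 1 of 15 immediate early and stress genes and 1 of 17 matrix protease genes (C5, HSPA5 and CTSL). Of all genes it called 0.823% higher and 0.606% lower. It called none of these members without library 2 of day 18 (0.0384% and 0.0576% of all genes). With all libraries it called none in the lists of innate immune, ion transport, angiogenesis, steroid metabolism, endothelium, erythrocyte, mesothelium and adipocyte genes.

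The column numbers do not mark shared gilts across days. Alternatives were DESeq2 1.42.0 and its size factors, no low-count filter, only days 15 and 18, a replicate block, no fold limit on the luteal lists, leaving out each library and, chosen after seeing the data, all 66 libraries in 1 fit and DESeq2 without library 1 or 2 of day 18. Computations outside R used Python 3.11.15, numpy 2.4.6, pandas 2.3.3 and matplotlib 3.10.9.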

Additional observations from a re-analysis of the deposited data

Results flagged for a closer look

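REC8 had a low library on day 15. Its level was 11.5 CPM in library 4 beside 14.9 to 15.4 CPM in the other 3, a gap of 0.891 of the range, above Dixon's 95% limit for 4 samples. It was the only such case in 25 groups examined, and chance alone gives about 1 in 20.

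For 5 genes the change from day 15 to day 18 differed from that of another tissue in edgeR's test of the difference itself (4 of 16934 genes, 0.0236%, against the endometrium, and 1, 0.00591%, against the ovary, beside 1607, 9.49%, and 2674, 15.8%, at an unadjusted p under 0.05). Against the endometrium, the oviduct's change was higher by 3.04 ± 0.56 (SE) in SLC2A8, a sugar transporter (1.31 in the oviduct, -1.74 in the endometrium, adjusted p = 0.0174), and by 1.71 ± 0.34 in MDH1, the cytosolic malate dehydrogenase (0.52 and -1.19, adjusted p = 0.034). It was higher by 1.82 ± 0.31 in ENSSSCG00000023670 (adjusted p = 0.00595) and by 5.12 ± 1.03 in ENSSSCG00000024531 (adjusted p = 0.034). Against the ovary it was higher by 2.42 ± 0.41 in ENSSSCG00000024493 (adjusted p = 0.00516). None of the 5 was called without library 2 of oviduct day 18, where the differences were 2.66, 1.69, 1.61, 4.76 and 1.81 and the adjusted p was 0.141 against the endometrium and 0.149 against the ovary.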

How the results depend on the processing

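KIF3B and the medians of both luteal lists kept their direction under every alternative run, and KIF3B its call in all but 1, while the number of genes called varied. Called genes (higher, lower) were 224 (129, 95) with DESeq2, 1801 (982, 819) with DESeq2 without library 1 of day 18, 15 (6, 9) with DESeq2 without library 2, 34 (31, 3) with all 66 libraries in 1 fit, and 0 (0, 0) with only days 15 and 18, where 717 genes had an unadjusted p under 0.05 and the adjusted p of KIF3B was 0.398. In the same order, the fits tested 15665, 15633, 15635, 16934 and 14597 genes. Luteal-low genes called higher were 70, 232, 5, 20 and 0 in these fits. Luteal-high genes called lower were 24, 182, 2, 0 and 0, with 1 luteal-low gene called lower in each of the first 2. The cause was not tested. With the replicate block, 2 genes were called, 0 higher and 2 lower (KIF3B and OAS2), with 0 luteal-low genes, and ENSSSCG00000024493 had 2.26 (adjusted p = 0.0757). The numbers did not pair the libraries, since libraries of the same number had correlations of 0.12, -0.10 and -0.09. Leaving out each of the 7 libraries in turn gave 1 to 795 called genes, 0 to 507 higher and 1 to 288 lower, 0 to 153 luteal-low genes higher and 0 to 81 luteal-high genes lower. The highest counts came without library 1 of day 18, where 3.24% of 15633 genes tested were called higher and 1.84% lower. Next were 148 of 15645 genes without library 4 of day 15. With a library left out, medians ranged from -0.92 to -0.37 (luteal-high) and 0.42 to 0.77 (luteal-low), the axis difference from -0.516 to -0.248, KIF3B from -1.89 to -1.51 and ENSSSCG00000024493 from 1.69 to 2.77. ENSSSCG00000024493 lost its call without library 1, 2 or 3 of day 15 or library 2 or 3 of day 18, and with only days 15 and 18 (adjusted p = 0.798). Without library 2 of day 15, SCIN was called (1.27, adjusted p = 0.0459). Genes differing from the endometrium were 77 with DESeq2, 2 with the replicate block and 0 to 121 with a library left out, and from the ovary 468 with DESeq2 and 0 to 510 with a library left out. With 3 and 4 libraries, a difference shared by fewer than all of a day's libraries is poorly resolved. Differences in genes near 3 counts are not resolved.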
